A study of Mus musculus with 14 samples.

Results

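The genes described here are 45 genes of the NRF2 antioxidant program, of glutathione metabolism and of the pentose phosphate pathway. They were chosen by name, but with earlier results of these data known, so shares set beside those of all genes tested are descriptions. Of the 45, 42 reached a mean of 1 TPM (a level per transcript length, scaled to the library total) over the 14 libraries and were tested, among 12927 genes tested of 40853 listed. Gpx2 and Cbr3 were listed at 0 in every library, and Gsta3 lay between 0 and 1.95 TPM. RNA sequencing was done on αTN4-1, a mouse lens epithelial cell line transformed by the SV40 T antigen. There were 7 stable lines. One is labelled Vector, 3 are labelled for CREB constructs whose names lack S133A (WT-CREB, KCREB and R314A-CREB), and 3 for constructs named with S133A (S133A/R314A-CREB, S133A-CREB, S133A-KCREB). CREB is the transcription factor that binds cAMP response elements. S133A removes the serine phosphorylated by protein kinase A, R314A lies in the leucine zipper region and prevents binding of the CRTC coactivators, and KCREB no longer binds DNA. Every line was held under neomycin and gave 1 control library and 1 library of cells given 20 ng/mL TGFβ for 24 h without serum. The labels leave unsaid whether control cells also went without serum, and effects of TGFβ and of removing serum cannot be told apart. They also do not say whether a line was 1 clone or a pool. The 7 lines serve as the replicates, so a p-value below measures the spread of the TGFβ difference between lines and not between repeat cultures.

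The number of genes at 1 TPM or more was 12545 to 13081 per library. Read totals were not used here, and the per-base coverage equal to 1 FPKM, which follows depth, ran from 5.06 to 10.1. Creb1, the gene the constructs are labelled for, stood at 20.8 TPM in the Vector control and at 25.8 and 34.0 TPM in the controls labelled KCREB and S133A-KCREB. It stood at only 6.59 to 11.6 TPM in the controls of the other 4 CREB lines, which goes against those labels, so lines are named only as labelled. Neither species nor extent of a construct is stated, and whether transcripts of a construct would be counted as mouse Creb1 was not tested. Among 12 lens epithelial markers, 8 averaged at least 1 TPM, with Pax6 at 63.9 to 328 TPM in control libraries, while Foxe3, Cdh1 and Gja1 were under 1 TPM in every library. The summed level of the 12 ran from 591 to 2478 TPM in control and from 468 to 918 TPM with TGFβ. Cryab, lower in all 7 lines, held 52.4% to 72.2% of that sum in control and 47.9% to 62.4% with TGFβ. Pax6, Mab21l1, Sox2 and Meis1 were also lower in all 7, while Cryaa was higher in 5. Endothelial markers summed to at most 3.38 TPM in any library. The 8 macrophage markers summed to 29.5 to 93.2 TPM in control and 18.9 to 52.4 TPM with TGFβ, with Adgre1 and Tyrobp listed at 0. Lyz2 held 58.9% to 93.2% of that sum in control and 40.9% to 78.8% with TGFβ and was lower in all 7 lines, while Csf1r and Aif1 were higher with TGFβ in all 7 and Cd68 in 6. The 6 corneal and surface ectoderm markers summed to 275 to 2281 TPM in control and 112 to 953 TPM with TGFβ. Aldh3a1, which is also an NRF2 target, held at least 99.5% of that sum in control and 75.4% to 99.8% with TGFβ, and Krt14, at most 5.06 TPM in control, was higher with TGFβ in all 7 lines, up to 42.7 TPM. The 6 muscle markers summed to 12.5 to 117 TPM in control and 85.7 to 212 TPM with TGFβ, of which Tnnt2 held 51.5% to 81.0% in control and up to 97.0% with TGFβ. Tnnt2 was higher and Des lower in all 7 lines, Myh3 was higher in 5, and Myod1 and Myog were listed at 0. The 6 neuron and retina markers summed to at most 7.77 TPM in control and 71.2 TPM with TGFβ, where Tubb3 was higher in all 7 lines and the other 5 were under 1 TPM in every library. The 12 lens fiber markers summed to 19.0 to 98.8 TPM in control and 14.1 to 39.9 TPM with TGFβ, with Prox1 lower in all 7 lines. Bfsp2 was also lower in all 7 and Hsf4 in 6, while Bfsp1, at most 1.43 TPM, was higher in 6. Mitochondrially encoded genes held a median of 8.20% of TPM in control and 6.75% with TGFβ. The part of these shifts in the results below was not tested.

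NRF2, encoded by Nfe2l2, is a transcription factor that the adaptor KEAP1 hands over for degradation until oxidants or electrophiles modify KEAP1. NRF2 then pairs with small MAF proteins on antioxidant response elements and raises genes that make glutathione, attach it to toxic compounds, pump out the conjugates, reduce thioredoxin and supply NADPH. The lens depends on glutathione and on NADPH from the pentose phosphate pathway to keep its proteins reduced, and loss of glutathione accompanies cataract.

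The core of the antioxidant response element, TGACNNNGC, was searched on both strands in the 250 bases before each annotated start (RefSeq promoters, GRCm38.p6). Of the 45 genes, 39 had a promoter in that table, and Abcc1, Gclc, Gsr, Gsta4, Hmox1 and Prdx6 were not matched. A match was present for 11 of the 39 (28.2%), against 14.1% of the 9918 tested genes with a promoter. The 39 include 3 genes below a mean of 1 TPM, which were not tested, and 1 of these had a match. Matches were found for 4 of the 21 with a promoter that fell with TGFβ (19.0%, against 14.2% of all tested genes that fell). They were found for 1 of the 2 that rose (14.19% of all tested genes that rose). Of the 13 that were not called, 5 had a match (38.5%, against 13.97% of all tested genes not called). Matches stood in the windows of Nfe2l2, Gclm, Gsta3, Gstm5, Mgst1, Txnrd1, Prdx1, G6pdx, Sod1, Ugdh and Abcc4. A match is only a run of letters, not a bound site. The windows of Gclm (chr3:122245307-122245556, plus strand, match starting 134 bases before the start) and Abcc4 (chr14:118706220-118706469, minus strand, 25 bases before) are shown because they hold a match yet neither gene was called with TGFβ. That of Gstm1 (chr3:108017974-108018223, minus strand, the farther upstream of its 2 starts) is shown because the gene fell strongly and its window holds none. Capitals mark the match, which in both cases reads on the opposite strand to the gene.
Gclm: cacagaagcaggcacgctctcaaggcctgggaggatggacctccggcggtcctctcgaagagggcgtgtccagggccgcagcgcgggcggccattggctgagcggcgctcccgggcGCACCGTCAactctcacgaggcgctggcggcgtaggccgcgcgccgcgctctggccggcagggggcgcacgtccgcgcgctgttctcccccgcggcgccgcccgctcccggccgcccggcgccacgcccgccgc
Abcc4: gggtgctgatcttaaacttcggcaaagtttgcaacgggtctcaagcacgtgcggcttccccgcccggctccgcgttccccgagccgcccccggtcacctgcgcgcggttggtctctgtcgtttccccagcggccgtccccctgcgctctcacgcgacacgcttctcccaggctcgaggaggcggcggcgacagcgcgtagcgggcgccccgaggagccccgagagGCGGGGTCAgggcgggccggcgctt
Gstm1: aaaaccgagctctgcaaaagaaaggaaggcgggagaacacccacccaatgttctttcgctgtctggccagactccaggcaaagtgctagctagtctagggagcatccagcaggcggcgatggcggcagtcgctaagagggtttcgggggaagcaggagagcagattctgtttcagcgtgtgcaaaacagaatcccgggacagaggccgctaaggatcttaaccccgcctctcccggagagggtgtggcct

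With TGFβ most of these genes were lower. Of the 42, 22 fell and 2 rose (limma, line as block, adjusted over all genes tested, threshold 0.05), while 21.4% of all genes tested fell and 24.1% rose. The median change of the 42 was -0.29 on the log2(TPM + 1) scale, against 0.017 over all genes tested. By role, 10 of 12 glutathione transferases, 4 of 5 genes of NADPH supply and the pentose phosphate pathway, and both NRF2 and KEAP1 genes fell. None of the 4 genes that make or recycle glutathione was called. All 7 lines were lower for 16 of the 42 (15.9% of all genes tested) and all 7 higher for 2 (18.5%). A fall of at least 2-fold was called for 7, namely Gsta2, Gsta4, Gstm1, Gstm6, Tkt, Nqo1 and Ephx1, against 1.6% of all genes tested. Control and TGFβ libraries did not overlap for 2 of them, Gstm1 and Ephx1 (0.905% of all genes tested), and for no gene in the upward direction (1.45%). Fewer cells that express a gene and less RNA per cell cannot be told apart in such libraries. Compared without the line as a block, 5 fell and 0 rose, where 4.01% of all genes tested fell and 4.99% rose. In the 3 lines with Creb1 at or above its Vector level, an alternative chosen after the data were seen, 19 fell and 1 rose, where 14% of all genes tested fell and 17.3% rose.

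**Figure D1:**
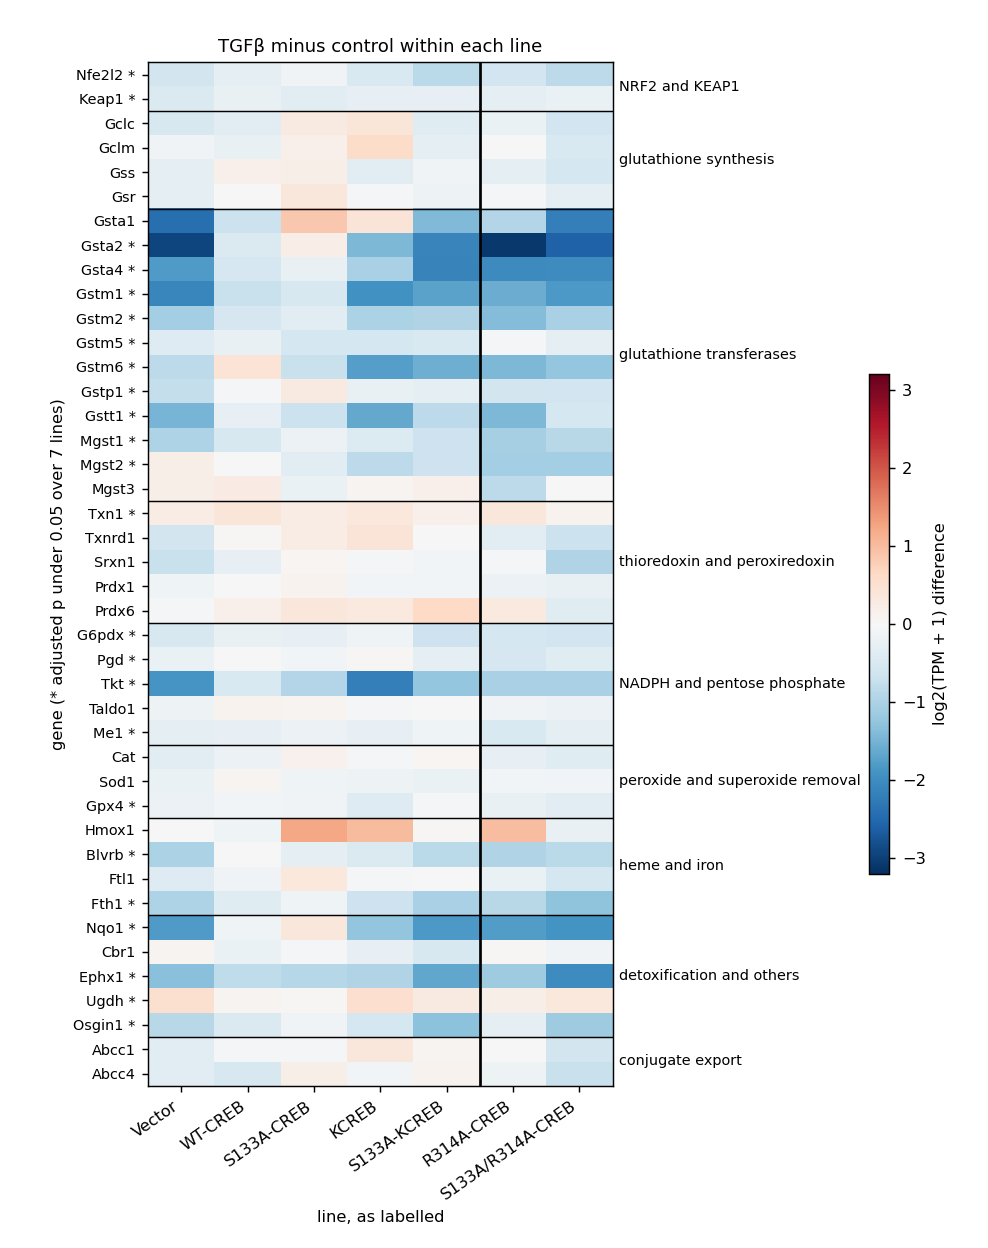
Colour gives the TGFβ minus control difference in log2(TPM + 1) for 42 genes (rows, by role) in 7 lines (columns, 1 library per treatment, the 2 R314A lines right of the vertical line), and an asterisk marks adjusted p under 0.05. Blue fills most of the glutathione transferase rows, from -3.09 for Gsta2 in the line labelled R314A-CREB, and is pale in the columns labelled WT-CREB and S133A-CREB, where the median of the 42 was -0.20 and -0.060.

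Both genes of the NRF2 and KEAP1 switch fell. Nfe2l2 (chromosome 2, 75505857 to 75535007, GRCm39, as are all gene positions below) ran from 181 to 243 TPM with a median of 214 TPM in control and from 118 to 227 TPM with a median of 124 TPM with TGFβ. It was lower in all 7 lines, by 0.10 in the line labelled S133A-CREB and by 0.85 in the line labelled S133A-KCREB, and fell by 0.54 ± 0.087 (log2, SE, adjusted p = 0.00126). The 2 lines with the smallest differences, labelled S133A-CREB and WT-CREB, held 227 and 171 TPM with TGFβ, and the other 5 TGFβ libraries were at or below 150.0 TPM. Keap1 (chromosome 9, 21141026 to 21150628) ran from 34.8 to 69.0 TPM with a median of 50.8 TPM in control and from 30.0 to 54.1 TPM with a median of 39.1 TPM with TGFβ. It fell by 0.30 ± 0.043 (adjusted p = 0.000847), lower in 7 of 7 lines although the 2 ranges overlapped.

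None of the other genes that act on NRF2 was called as fallen. Of 11 partners and regulators tested, 5 rose and 0 fell, where 24.1% of all genes tested rose and 21.4% fell. Of the 6 not called, 3 had negative values, and the median of the 11 was 0.16. Bach1, a repressor that competes with NRF2 for its elements, rose from 23.5 ± 5.14 to 30.4 ± 6.65 TPM (mean ± SD, n = 7), a change of 0.36 ± 0.054 (adjusted p = 0.000976). Syvn1, a ubiquitin ligase of the endoplasmic reticulum that can degrade NRF2, rose from 47.8 ± 5.55 to 72.3 ± 14.1 TPM, a change of 0.57 ± 0.083 (adjusted p = 0.000824). The other 3 that rose were Mafg, a small MAF partner, Cul3, the ligase scaffold that works with KEAP1, and Dpp3, a KEAP1-binding protein. Bach1 and Syvn1 were higher in all 7 lines.

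Glutathione is built in a pair of steps, by glutamate-cysteine ligase (catalytic subunit Gclc, modifier subunit Gclm) and glutathione synthetase (Gss), and is returned to its reduced form by glutathione reductase (Gsr). None of the 4 was called, where 45.4% of all genes tested were called in either direction. Their changes ran from -0.20 to -0.060. Gclc (chromosome 9, 77661817 to 77701771) ran from 117 to 199 TPM with a median of 168 TPM in control and from 110.3 to 204 TPM with a median of 141 TPM with TGFβ. Its lines split, with higher TGFβ levels in those labelled KCREB (0.38) and S133A-CREB (0.28) and lower levels in the other 5, down to -0.61 in the line labelled S133A/R314A-CREB. The mean change of Gclc was -0.20 ± 0.12 (95% CI -0.47 to 0.067, adjusted p = 0.194), and it was called without the line labelled KCREB (-0.30, adjusted p = 0.0486). Gss changed by -0.18 ± 0.088 (adjusted p = 0.122) and Gsr by -0.082 ± 0.076 (adjusted p = 0.407). Gclm, whose promoter window holds the match printed above, ran from 51.8 to 124 TPM with a median of 74.9 TPM in control and from 41.4 to 105 TPM with a median of 71.5 TPM with TGFβ.

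Of 12 further tested genes of glutathione uptake, turnover and glutaredoxins, 4 rose and 2 fell, near the shares of all genes tested (24.1% and 21.4%). Chac1, a cytosolic enzyme that breaks glutathione down, rose from 84.0 ± 16.0 to 129.9 ± 26.0 TPM (mean ± SD, n = 7), a change of 0.62 ± 0.12 (adjusted p = 0.00297). Glrx, a glutaredoxin that removes glutathione from protein thiols, fell by 0.69 ± 0.10 (adjusted p = 0.000948), from 17.1 ± 11.7 to 9.95 ± 6.95 TPM. Each moved in 1 direction in all 7 lines.

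The glutathione transferases, which couple glutathione to electrophiles, had the lowest median of the role groups, -0.91 over 12 genes. Of the 12, 10 fell, where 21.4% of all genes tested fell. Gsta1 (-0.91 ± 0.37, adjusted p = 0.0727) and the microsomal Mgst3 (-0.046 ± 0.12, adjusted p = 0.786) were not called. The falls called ranged from 0.32 for Gstp1, the most abundant transferase, to 1.77 for Gsta2. In a limma fit with the 2 R314A lines set apart, 8 of the 12 fell in the other 5 lines (15.6% of all genes tested). There Gstp1 (-0.21, adjusted p = 0.226) and Mgst2 (-0.34, adjusted p = 0.12) were not called. Gstm1 (chromosome 3, 107919566 to 107925289), a cytosolic enzyme of the mu class, ran from 261 to 597 TPM with a median of 424 TPM in control and from 78.4 to 251 TPM with a median of 154 TPM with TGFβ. Every TGFβ library was thus below every control library, and Gstm1 fell by 1.49 ± 0.19 (95% CI -1.91 to -1.07, adjusted p = 0.000474).

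Gstm2 (chromosome 3, 107889018 to 107893736), its neighbour on chromosome 3, ran from 89.8 to 278 TPM with a median of 246 TPM in control and from 43.7 to 214 TPM with a median of 127 TPM with TGFβ. It fell by 0.91 ± 0.11 (adjusted p = 0.000379), in all 7 lines. Mgst1 (chromosome 6, 138117525 to 138133753), a membrane-bound transferase, ran from 174 to 302 TPM with a median of 264 TPM in control and from 82.0 to 234 TPM with a median of 153 TPM with TGFβ, and fell by 0.68 ± 0.10 (adjusted p = 0.000953). The control and TGFβ ranges of both overlapped, yet each line was lower with TGFβ. Gsta2, Gsta4, Gstt1 and Nqo1 were added to the named genes after their values were seen. Gsta4 (chromosome 9, 78099248 to 78116631), which conjugates the lipid aldehyde 4-hydroxynonenal, ran from 35.9 to 176 TPM with a median of 149.7 TPM in control and from 7.39 to 103 TPM with a median of 49.1 TPM with TGFβ, and fell by 1.40 ± 0.24 (adjusted p = 0.00174). Gsta2 (chromosome 9, 78238300 to 78254474) varied most between control libraries among the 12 transferases. It stood at 119 TPM in the control labelled Vector and at 4.71 TPM in that labelled WT-CREB. With TGFβ it ran from 0.519 to 14.7 TPM with a median of 6.09 TPM, lower in 6 lines and higher by 0.21 in the line labelled S133A-CREB, and it fell by 1.77 ± 0.38 (adjusted p = 0.00517). Gstt1, of the theta class, fell by 0.99 ± 0.16 (adjusted p = 0.00144). The mu genes and the alpha genes lie in clusters of close copies, and how reads were divided among copies is not given, so a value of a single transferase is less certain than the direction of its cluster.

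Outside the 12, 9 more transferase genes were tested, of which 2 rose and 3 fell, with a median of -0.17 (24.1% of all genes tested rose and 21.4% fell). Gsto1, an omega-class enzyme with thiol transferase activity, rose from 332 ± 76.5 to 609 ± 171 TPM (mean ± SD, n = 7), a change of 0.86 ± 0.077 (adjusted p = 0.000142), higher in 7 of 7 lines. Gstm7, in the same cluster as Gstm1 (chromosome 3, 107833650 to 107839193), fell from 30.0 ± 29.4 to 3.94 ± 2.52 TPM, a change of -2.18 ± 0.28 (adjusted p = 0.00052).

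**Figure D2:**
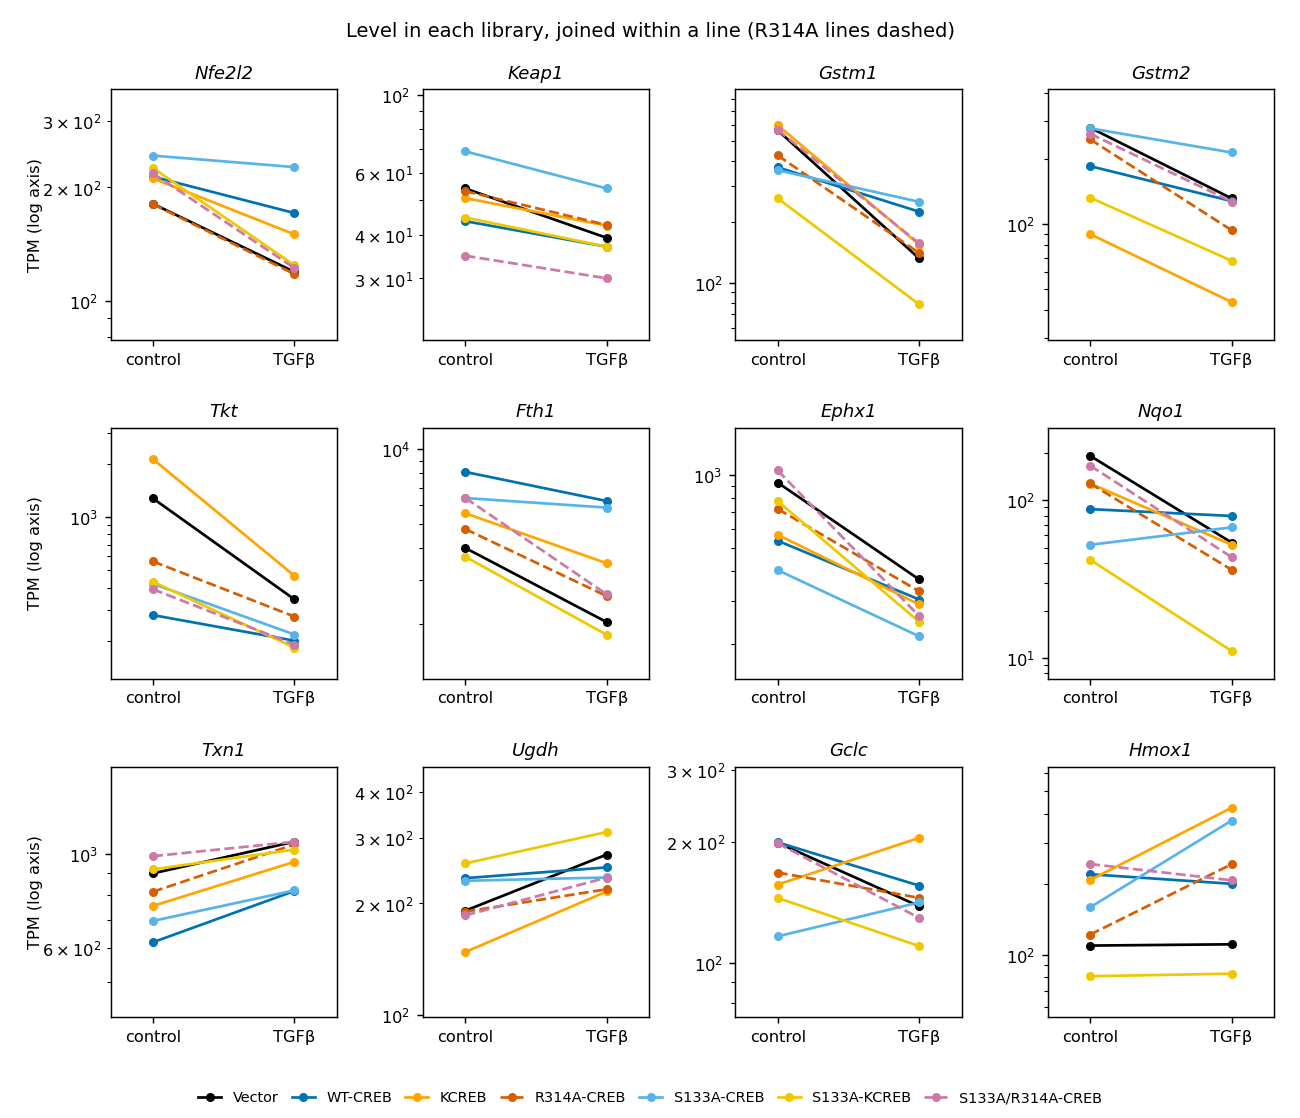
Each panel gives the TPM of 1 gene (log axis) in control and TGFβ libraries, with 1 line joining the 2 libraries of each stable line and dashes for the R314A lines. Gstm1 and Ephx1 drop to 251 TPM or less and 369 TPM or less, below all their controls, while Txn1 and Ugdh slope upward in all 7 lines and Gclc and Hmox1 cross.

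In the thioredoxin system 1 of 5 genes rose, near the 24.1% of all genes tested, and none fell. Txn1 (chromosome 4, 57943373 to 57956411), the cytosolic thioredoxin that reduces protein disulfides, ran from 620.3 to 987 TPM with a median of 815 TPM in control and from 818 to 1067 TPM with a median of 1023 TPM with TGFβ. It was higher in all 7 lines, by 0.11 to 0.40, a mean change of 0.27 ± 0.049 (adjusted p = 0.00252). Txnrd1, the reductase that recharges thioredoxin with NADPH, changed by -0.14 ± 0.13 (adjusted p = 0.408). Srxn1, sulfiredoxin, which repairs overoxidised peroxiredoxins, changed by -0.30 ± 0.12 (adjusted p = 0.0722), passing only under quantile normalization (adjusted p = 0.0486). Prdx1, an abundant peroxiredoxin (control 952 ± 109 TPM, TGFβ 890.1 ± 71.5 TPM, mean ± SD, n = 7), changed by -0.093 ± 0.051 (adjusted p = 0.167). Prdx6 was higher in 5 lines and lower in 2 and was not called.

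Among 17 further genes of this system and of peroxide removal, 5 rose and 6 fell, against 24.1% and 21.4% of all genes tested. Txnip, the protein that binds and inhibits thioredoxin, fell from 53.2 ± 26.6 to 25.4 ± 10.1 TPM (mean ± SD, n = 7), a change of -1.01 ± 0.16 (adjusted p = 0.00108). Sesn1, a sestrin, fell by 0.72 ± 0.13 (adjusted p = 0.0025). Both were lower in all 7 lines.

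NADPH reduces both oxidised glutathione and thioredoxin. Of the 5 genes of NADPH supply and the pentose phosphate pathway, 4 fell (21.4% of all genes tested). Tkt (chromosome 14, 30271088 to 30296681), transketolase of the non-oxidative pentose phosphate branch, ran from 279.7 to 2129 TPM with a median of 432 TPM in control and from 183 to 466 TPM with a median of 217 TPM with TGFβ. It fell by 1.26 ± 0.18 (adjusted p = 0.000796), in all 7 lines. Controls labelled KCREB (2129 TPM) and Vector (1278 TPM) stood well above the other 5, which held 279.7 to 562 TPM, and these 2 lines also had the most negative differences (-2.19 and -1.89). G6pdx (chromosome X, 73453089 to 73472486), the first enzyme of the oxidative branch, ran from 219 to 364 TPM with a median of 317 TPM in control and from 139 to 308 TPM with a median of 242 TPM with TGFβ, and fell by 0.43 ± 0.070 (adjusted p = 0.00138). Me1, the cytosolic malic enzyme, fell by 0.27 ± 0.046 (adjusted p = 0.00152), from 295 ± 64.8 to 243 ± 49.2 TPM. Pgd, the enzyme after G6pdx that yields a further NADPH, also fell (-0.21 ± 0.071, adjusted p = 0.0359), lower in 6 of 7 lines. In a limma fit with the 2 R314A lines set apart, Pgd was not called in the other 5 lines (-0.11, adjusted p = 0.194). Its change in the 2 R314A lines was -0.46. Taldo1, transaldolase, which works beside Tkt, was not called (-0.041 ± 0.050, adjusted p = 0.526).

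The wider pathway moved in both directions, with more falls than rises. Of 18 further pentose phosphate and NADPH genes tested, 10 fell and 3 rose, with a median of -0.16 (21.4% of all genes tested fell and 24.1% rose). Rpia, which interconverts the pentose phosphates, fell from 31.3 ± 5.62 to 19.2 ± 3.08 TPM (mean ± SD, n = 7), a change of -0.67 ± 0.081 (adjusted p = 0.000397). Prps2, which makes phosphoribosyl pyrophosphate from ribose 5-phosphate for nucleotide synthesis, fell by 0.38 ± 0.043 (adjusted p = 0.000323). Prps1, a gene for the same step, rose by 0.32 ± 0.049 (adjusted p = 0.00105), higher in all 7 lines, from 61.3 ± 7.48 to 76.5 ± 3.72 TPM. Prps2 went from 80.5 ± 8.90 to 61.6 ± 3.46 TPM. The 3 that rose were Prps1, Mthfd2 and Aldh1l2.

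Of the 3 genes for peroxide and superoxide removal tested, 1 fell (21.4% of all genes tested). Gpx4, the glutathione peroxidase that reduces lipid hydroperoxides, fell by 0.21 ± 0.055 (adjusted p = 0.0121), from 829.7 ± 156 to 717 ± 138 TPM, but was not called in the 5 lines without R314A (adjusted p = 0.0921). Cat, catalase, changed by -0.15 ± 0.070 (adjusted p = 0.107) and was called without the line labelled S133A-CREB (-0.20, adjusted p = 0.0448). Sod1, the copper-zinc superoxide dismutase, changed by -0.11 ± 0.047 (adjusted p = 0.0725), lower in 6 of 7 lines, and was called under 4 alternatives, without the line labelled WT-CREB (adjusted p = 0.0191), under quantile normalization (adjusted p = 0.0268), in TPM without mitochondrially encoded genes (adjusted p = 0.045) and in FPKM (adjusted p = 0.0489).

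The heme and iron genes split. Fth1 (chromosome 19, 9957964 to 9962475), the ferritin heavy chain that stores iron, ran from 3705 to 8105 TPM with a median of 5537 TPM in control and from 1801 to 6195 TPM with a median of 2616 TPM with TGFβ, and fell by 0.77 ± 0.13 (adjusted p = 0.00171). Its light chain partner Ftl1 held 5335 ± 944 TPM in control and 4914 ± 1269.9 TPM with TGFβ and was not called (-0.14 ± 0.10, adjusted p = 0.288). Both ferritin genes have many processed copies in the genome, and the assignment of shared reads is not given. Blvrb, biliverdin reductase B, fell by 0.64 ± 0.12 (adjusted p = 0.0026), lower in all 7 lines. Hmox1 (chromosome 8, 75820246 to 75827221), heme oxygenase 1, ran from 80.9 to 244 TPM with a median of 159.6 TPM in control and from 83.0 to 426 TPM with a median of 208 TPM with TGFβ. It was higher by 1.23, 1.02 and 0.99 in the lines labelled S133A-CREB, KCREB and R314A-CREB and within 0.23 of its control in the other 4, so that the mean change of 0.42 ± 0.19 was not called (adjusted p = 0.101).

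Among the detoxification genes 3 of 5 fell and 1 rose (21.4% and 24.1% of all genes tested). Ephx1 (chromosome 1, 180817121 to 180845134), microsomal epoxide hydrolase, had the smallest adjusted p of the 42. It ran from 403 to 1044 TPM with a median of 723 TPM in control and from 214 to 369 TPM with a median of 291 TPM with TGFβ, with no overlap, and fell by 1.26 ± 0.14 (95% CI -1.56 to -0.95, adjusted p = 0.000268). Nqo1 (chromosome 8, 108114856 to 108139012), the quinone reductase often used as a readout of NRF2, ran from 42.0 to 191 TPM with a median of 127.6 TPM in control and from 11.1 to 79.5 TPM with a median of 52.3 TPM with TGFβ. It was lower in 6 lines, by at most 1.90, barely so in the line labelled WT-CREB (-0.14), and higher by 0.36 in the line labelled S133A-CREB. Nqo1 fell by 1.20 ± 0.28 over the 7 lines (adjusted p = 0.00752) but was not called in the 5 lines without R314A (adjusted p = 0.0681). Osgin1, an oxidative stress-induced growth inhibitor, fell by 0.68 ± 0.14 (adjusted p = 0.00418), in all 7 lines. Ugdh (chromosome 5, 65570550 to 65593185), which makes the UDP-glucuronate used in glucuronidation and in hyaluronan, rose by 0.28 ± 0.066 (adjusted p = 0.00721), from 205 ± 36.8 to 248 ± 33.8 TPM, higher in all 7 lines.

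Of 13 further NRF2 target genes tested, 6 fell and 3 rose, with a median of -0.18 (21.4% of all genes tested fell and 24.1% rose). Aox1, aldehyde oxidase, fell from 16.2 ± 3.65 to 6.84 ± 2.30 TPM (mean ± SD, n = 7), a change of -1.16 ± 0.12 (adjusted p = 0.000197). Fech, ferrochelatase, which inserts iron into heme, fell by 0.54 ± 0.065 (adjusted p = 0.000379). The 2 pumps that export glutathione conjugates, Abcc1 (-0.082 ± 0.097, adjusted p = 0.52) and Abcc4 (-0.22 ± 0.11, adjusted p = 0.115), were not called, where 45.4% of all genes tested were called in either direction. Over all 80 other pathway genes tested, 27 fell and 22 rose, with a median of -0.083, beside the same 21.4% and 24.1% of all genes tested.

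**Figure D3:**
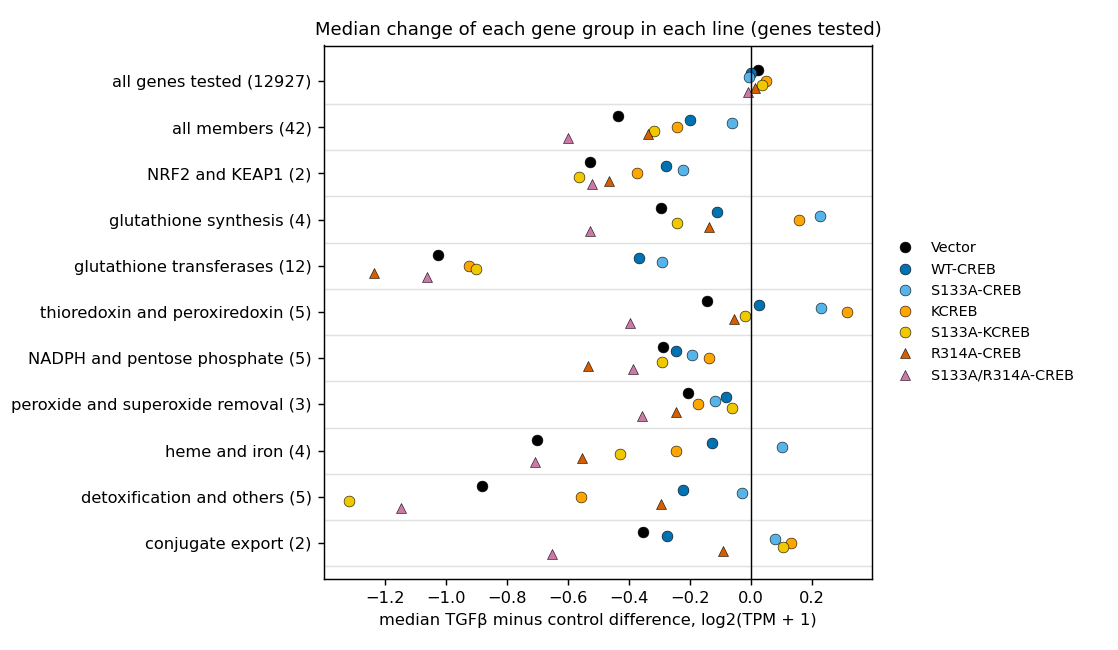
Each point is the median TGFβ minus control difference, in log2(TPM + 1), of a gene group in 1 line, with triangles for the 2 R314A lines and the number of genes tested in brackets. The median of all genes tested sits near 0 in every line, while the glutathione transferases lie between -1.24 and -0.29.

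The TGFβ difference was not of one size in all lines. With 1 library per side there is no test within a line, and counts past 2-fold are descriptions. At least 2-fold lower with TGFβ were 10 of the 42 in the line labelled Vector (3.25% of all genes tested), 8 in that labelled KCREB (4.16%) and 10 in that labelled S133A-KCREB (2.66%). The R314A-CREB line had 11 (2.88%) and that labelled S133A/R314A-CREB 12 (2.92%). In the lines labelled WT-CREB and S133A-CREB the count was 0 of 42, where 0.828% and 1.8% of all genes tested were that much lower. Hmox1 alone was at least 2-fold higher, in the lines labelled KCREB (3.45%) and S133A-CREB (1.18%). No gene of the 42 was that much higher in the lines labelled Vector (2.74%), WT-CREB (0.82%), R314A-CREB (2.06%), S133A-KCREB (1.83%) or S133A/R314A-CREB (2.05%). At any size, 39 of the 42 were lower in the line labelled S133A/R314A-CREB (50.8% of all genes tested), 37 in that labelled R314A-CREB (47.9%) and 36 in that labelled Vector (47.1%). This count was 32 in the lines labelled WT-CREB (49.7%) and S133A-KCREB (45.3%), 31 in that labelled KCREB (44.6%) and 23 in that labelled S133A-CREB (50.9%). The median of the 42 ran from -0.60 in the line labelled S133A/R314A-CREB and -0.44 in that labelled Vector to -0.060 in that labelled S133A-CREB. The line labelled S133A/R314A-CREB had the most negative difference for 19 genes, and that labelled S133A-CREB the least negative or most positive for 19.

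The 2 lines labelled with R314A were then set apart, against the 5 other lines. No gene of the 12927 tested differed in its TGFβ change between them after adjustment (limma on the 7 within-line differences, smallest adjusted p = 0.512), 4.87% did so at an unadjusted p under 0.05, and of the 42 genes 3 did so at that level, namely Pgd, Mgst2 and Mgst3. The change was more negative in the R314A lines for 37 of the 42 and for 55% of all genes tested, with a median of -0.45 in the R314A lines and -0.21 in the others. The fit of the 7 within-line differences also gave the change in each set of lines, with a spread shared by all 7. In it the 5 other lines had 18 genes called as fallen (15.6% of all genes tested) and 2 as risen (18%). The 2 R314A lines had 14 as fallen (7.5%) and none as risen (5.91%). Fitted without the R314A lines, the 5 other lines had 16 fallen (14.4%) and 2 risen (16.5%). The 12 glutathione transferases had median changes of -1.15 and -0.72, with the R314A lines first in each pair. The 5 thioredoxin genes had -0.21 and 0.016, and the 5 NADPH and pentose phosphate genes -0.46 and -0.23. By line, the transferase median was -1.24 (R314A-CREB) and -1.06 (S133A/R314A-CREB), beside -1.03 (Vector), -0.92 (KCREB), -0.90 (S133A-KCREB), -0.37 (WT-CREB) and -0.29 (S133A-CREB). The thioredoxin median was -0.40 (S133A/R314A-CREB), -0.054 (R314A-CREB) and -0.14 (Vector). For the NADPH and pentose phosphate genes both R314A lines were lowest (-0.53 and -0.38). The median of all 42 was -0.60 (S133A/R314A-CREB), -0.44 (Vector) and -0.34 (R314A-CREB).

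Pgd had the smallest p for this difference. It changed by -0.11 ± 0.061 in the 5 other lines and -0.46 ± 0.097 in the 2 R314A lines (log2, SE), a difference of -0.35 (95% CI -0.61 to -0.088, limma adjusted p = 0.957). Both R314A lines (-0.53 and -0.38) lay below the lowest of the others, labelled S133A-KCREB (-0.29). Gsta2 changed by -1.35 ± 0.40 in the 5 other lines and -2.84 ± 0.63 in the 2 R314A lines, a difference of -1.49 with a wide interval of -3.19 to 0.21. The line labelled Vector, at -2.93, lay between the 2 R314A lines. Mgst1 changed by -0.56 ± 0.10 in the 5 other lines and -0.98 ± 0.16 in the 2 R314A lines, and Gstm2 by -0.79 ± 0.11 in the 5 other lines and -1.21 ± 0.18 in the 2 R314A lines, and for both the Vector line again lay among the R314A lines. Mgst3 was lower in the line labelled R314A-CREB (-0.85) but level in that labelled S133A/R314A-CREB (0.013), so the 2 R314A lines differed from each other. Txnrd1 changed by 0.016 ± 0.13 in the 5 other lines and -0.52 ± 0.20 in the 2 R314A lines, and Gss by -0.079 ± 0.089 in the 5 other lines and -0.44 ± 0.14 in the 2 R314A lines. Gstm5 went the other way, with -0.45 ± 0.067 in the 5 other lines and -0.17 ± 0.11 in the 2 R314A lines. The limma adjusted p of each of these 8 differences was 0.957. Mgst2, at a mean of 3.99 TPM below the 5 TPM asked of named genes, changed by -1.09 in both R314A lines, a difference from the other 5 of -0.76 (95% CI -1.41 to -0.11, limma adjusted p = 0.957).

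**Figure D4:**
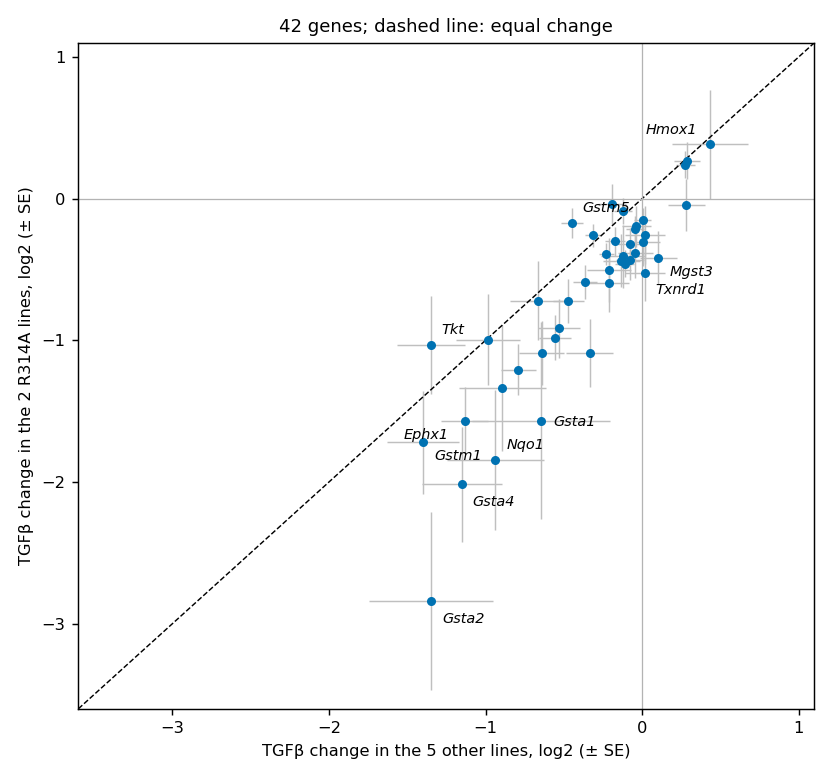
Each point is 1 of 42 genes, with its TGFβ change (log2) in the 5 other lines on the x axis and in the 2 R314A lines on the y axis, and bars of 1 SE. Of the 42 points, 37 lie below the dashed line of equal change, and Gsta2 lies lowest.

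Mean levels over both treatments did not separate the R314A lines either. No gene tested differed after adjustment (limma on 7 line means, smallest adjusted p = 0.9998, with 2.17% at an unadjusted p under 0.05), and none of the 42 reached an unadjusted p under 0.05. The R314A lines were higher for 26 of the 42 and for 50.6% of all genes tested. Mgst1 had the smallest p, with a level lower by 0.46 ± 0.21 (log2, SE) in the R314A lines, against which Osgin1 was higher by 0.69 ± 0.41. That of Osgin1 rests on 1 line, since without the line labelled S133A/R314A-CREB the difference was -0.17. Gstp1 (0.37), Gss (0.36), Sod1 (0.30), Ephx1 (0.28) and Txn1 (0.20) were higher and Nfe2l2 (-0.23) lower in log2 level, with SEs of 0.17 to 0.31.

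Control levels differed between single lines far more for some genes than for others. Nfe2l2 spanned only 1.35-fold from the lowest to the highest control and Prdx1 1.44-fold, whereas Tkt spanned 7.61-fold, Gsta1 21.2-fold and Gsta2 25.2-fold. Cbr1, a carbonyl reductase, stood at 0.469 and 0.259 TPM in the line labelled WT-CREB and at 11.1 to 38.3 TPM in all other libraries. The line labelled S133A/R314A-CREB had the highest control of the 7 for 14 of the 42 genes, among them Gstp1 at 1694 TPM and Osgin1 at 88.1 TPM. The line labelled S133A-KCREB had the lowest for 13, among them Gsta4 at 35.9 TPM and Nqo1 at 42.0 TPM. Creb1 was at 7.92 TPM in the first of these controls and at 34.0 TPM in the second, and its part in these levels was not tested. By level, the ferritin genes were the most abundant of the 42, followed in control by Gstp1 (1044 ± 339 TPM), Prdx1 and Gpx4.

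**Figure D5:**
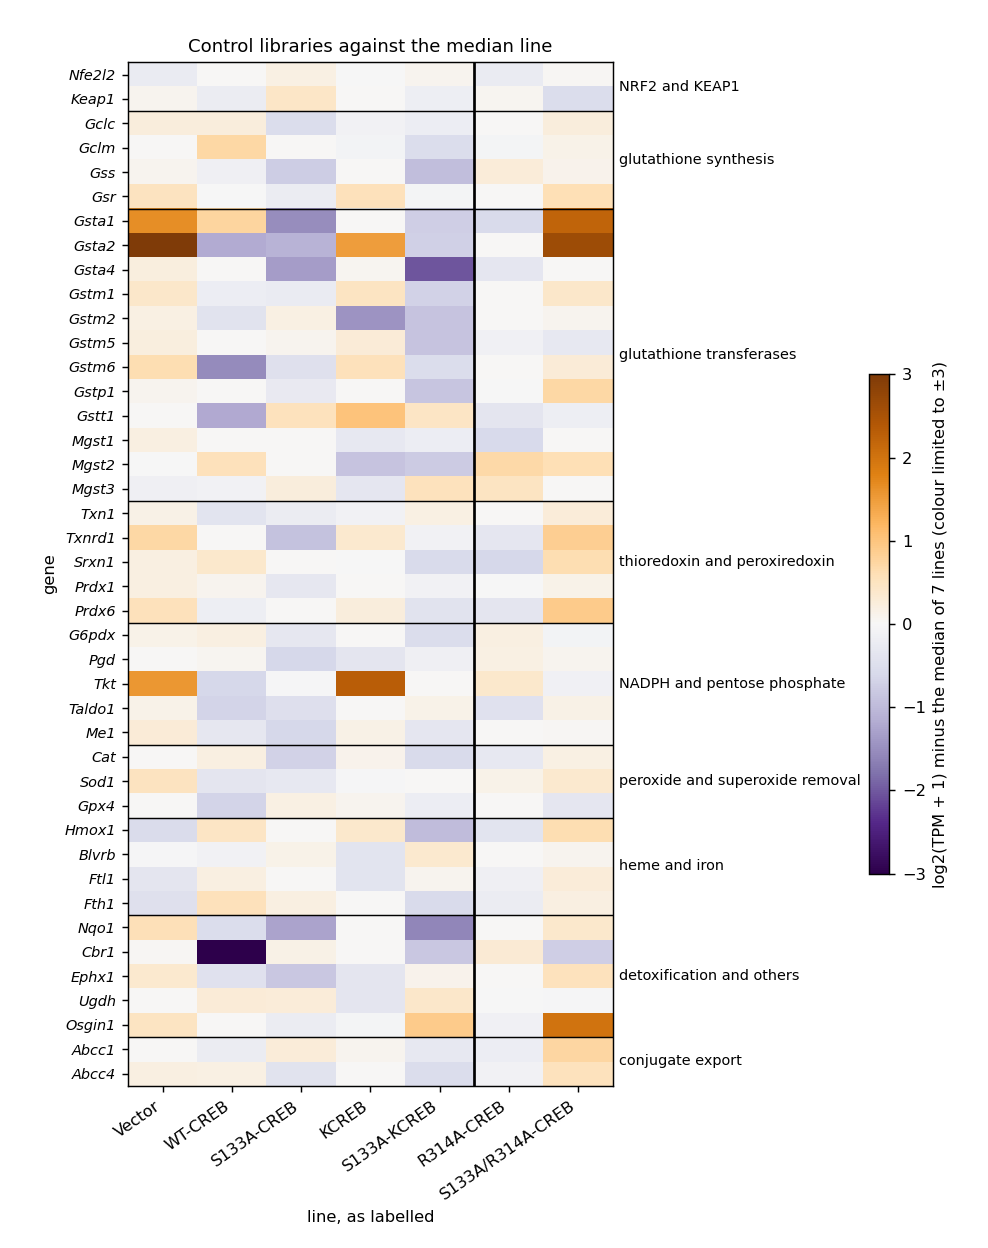
Colour gives the control level of each of 42 genes in each line as log2(TPM + 1) minus the median of the 7 lines, with the scale limited to 3 on either side. Cbr1 in the line labelled WT-CREB runs past the scale, Gsta1 and Gsta2 are high in the lines labelled Vector and S133A/R314A-CREB, and the column labelled S133A-KCREB is mostly on the low side.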

How the data were processed

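RNA from 14 cultures of αTN4-1 was sequenced on a DNBSEQ-T7 instrument, per the labels' protocols. Tools named without a role in the submitters' processing notes are StringTie 2.0.4, STAR 2.7.6a and edgeR, and the build named there is GRCm39. For strandedness and annotation release, the sources used here state nothing. The deposited tables give for each gene the authors' TPM, FPKM and coverage, per the file headers. Exact zeros can be failed estimates, and no read counts are held, so no count model was used.

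TPM was taken as log2(TPM + 1), which understates the change of low genes, and genes averaging 1 TPM or more were tested with limma 3.58.1 in R 4.3.3 (intensity trend, Benjamini-Hochberg over all genes tested, two-sided, adjusted p under 0.05). The TGFβ fit had the line as a block. The control and TGFβ libraries of a line carry the same line label. As a check of the pairing, deviations from the treatment mean gave r of 0.614 to 0.845 (over genes) within a line, while libraries of different lines reached at most 0.275. The R314A comparisons used the 7 within-line differences and the 7 line means. The scripts were tested on simulated data.

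The genes, their role groups and the lists of other pathway genes were chosen with earlier results of these data known. By the naming rule, Nfe2l2 and Keap1 were always named, then, among genes averaging 5 TPM or more, the 3 of each role group with the smallest p for TGFβ, the 8 with the smallest p in each R314A comparison, and 2 of each list of other genes. Further genes given with a value were chosen after their values were seen. Alternatives were pseudocounts of 0.1 and 5 TPM, no filter or one at 5 TPM, median-of-ratios and quantile scaling, TPM without mitochondrially encoded genes, FPKM, no trend, no block, each line left out, the 5 lines without R314A, an exact sign-flip test, other R314A contrasts, single treatments for levels, and, added after the data were seen, the 3 lines with Creb1 at or above its Vector level. Promoter sequences are from RefSeq.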

Additional observations from a re-analysis of the deposited data

Results flagged for a closer look

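Groups of 7 values, all in log2(TPM + 1), were the control levels, TGFβ levels or TGFβ minus control differences of 1 gene. In each, a library or line was marked for its gap to the nearest other value. The gap had to take up more of the whole range than Dixon's test allows at the 95% level. Levels are printed in TPM, on which the gaps look different. Of 126 groups examined 8 were marked, and chance marks about 1 in 20. Cbr1 in the line labelled WT-CREB was marked in both treatments, at 0.469 TPM in control, where the other 6 lines held 16.3 to 37.1 TPM, and at 0.259 TPM with TGFβ, where they held 11.1 to 38.3 TPM. Sod1 was marked for the line labelled WT-CREB because its TGFβ difference was 0.0998 (log2), where the other 6 lines lay between -0.21 and -0.088. Osgin1 with TGFβ stood at 39.3 TPM in the line labelled S133A/R314A-CREB and at 13.6 to 16.7 TPM in the other 6. With TGFβ, the line labelled S133A-KCREB was the lowest for Nqo1, at 11.1 TPM against 36.3 to 79.5 TPM, and for Gstm5, at 21.3 TPM against 36.9 to 50.7 TPM. The line labelled R314A-CREB had the lowest TGFβ difference of Mgst3, at -0.85 against -0.20 to 0.27, and of Me1, at -0.49 against -0.29 to -0.14. No line was marked for a gene of glutathione synthesis.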

How the results depend on the processing

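Of 22 genes that fell, 5 did so without the replicate block, where the 2 that rose came to 0. Those 5 were Nfe2l2, Gstm1, Mgst1, Blvrb and Ephx1. In the 3 lines with Creb1 at or above its Vector level (chosen after seeing the data) 1 rose and 19 fell. Under the other alternatives run, 16 to 24 fell and 2 to 3 rose, leaving out each line in turn gave 19 to 24 and 2 to 3, and the 5 lines without R314A gave 16 and 2. The number of the 42 that differed in the R314A lines was 0 under every alternative run, 18 for the TGFβ change and 20 for the level. All 19 called genes that the naming rule took by their p for TGFβ, or that were added to it, kept their direction in every alternative. Pgd, Gstm5 and Gstp1, called as well, were named only for the R314A comparisons and are not among the 19. Of these 19, 14 lost the call in at least 1 alternative, all of them without the block, and Nqo1 (adjusted p = 0.0681) and Gpx4 (adjusted p = 0.0921) also in the 5 lines without R314A. Among genes not called but taken by the same rule, Sod1 gained the call in 4 alternatives and Gclc, Srxn1 and Cat in 1 each. The remaining genes not called, such as Gsta1, were not followed one by one. Abcc1 changed sign, to 0.0028 without the line labelled S133A/R314A-CREB, with a range of -0.16 to 0.0028 over lines left out, and to 0.0079 in the 5 lines without R314A. The R314A level difference of Osgin1 ran from -0.17 to 1.54 over lines left out and changed sign without the line labelled S133A/R314A-CREB. Of the 15 other pathway genes named by the rule or under Other observations, all kept their direction in the 18 alternatives of the fit. Of these, 11 kept their call, or 14 if the fit without the block is set aside. Slc7a11 was also not called without a filter (limma adjusted p = 0.0586). The median change of all genes stayed between -0.0016 and 0.025 under every scaling, pseudocount and filter run. Read depth was not given, so how far it limits low genes such as Gsta2, Gstm6 and Mgst2 was not tested.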

Other observations

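Aldh3a1, Me3 and Slc7a11, 3 genes outside the 42, were chosen after their values were seen. Aldh3a1 encodes an aldehyde dehydrogenase that is an NRF2 target and an abundant soluble protein of the cornea. It fell from 1163 ± 662 to 322 ± 297 TPM (mean ± SD, n = 7), a change of -2.02 ± 0.34 (log2, SE, limma adjusted p = 0.00167), and was lower in all 7 lines. The control levels ran from 275 TPM in the line labelled KCREB to 2276 TPM in that labelled WT-CREB. Me3, the mitochondrial malic enzyme that makes NADPH, fell from 13.8 ± 4.78 to 6.23 ± 2.28 TPM, a change of -1.03 ± 0.14 (limma adjusted p = 0.000579), also in all 7 lines. Slc7a11, the cystine transporter that brings in the limiting amino acid of glutathione, rose from 19.2 ± 10.4 to 30.9 ± 23.6 TPM (limma adjusted p = 0.0152). It was higher in all 7 lines, but the highest TGFβ library, labelled KCREB, held 82.0 TPM and the other 6 held 10.1 to 32.5 TPM.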
